A study of Mus musculus with 12 samples.

Results

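The lipocalins are small secreted proteins that fold into a barrel and carry hydrophobic ligands such as retinoids, steroids, fatty acids and iron-binding siderophores. In mice a cluster of lipocalin genes on chromosome 2 is known for expression in the epididymis, the duct in which sperm mature, where its products are secreted by the epithelium and bathe the sperm. Other family members act elsewhere, in innate immunity, in prostaglandin synthesis and in lipid transport. Described here are 9 lipocalin genes of the 19938 genes measured, taken by name from a list of family members, each from the 1 array transcript that names that gene alone. They fall into 6 epididymal lipocalins (Lcn5, Lcn6, Lcn8, Lcn9, Lcn10 and Lcn12) and 3 others (Lcn2, Ptgds and Apod), and all 9 were measured.

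Total RNA was taken from the white fat (WAT) and the brown fat (BAT) of 20-week-old male mice, which were per2+/+ or carried Per2-/-, the line described by Bae and colleagues, in which the clock repressor gene Per2 is disrupted. All mice ate chow freely, lived in 12 h of light and 12 h of darkness and were killed at the same, unstated time of day. Each of the 4 groups (WAT per2+/+, WAT per2-/-, BAT per2+/+, BAT per2-/-) holds 3 biological replicates on 1 Affymetrix array each, and 12 arrays were used. Which white fat depot was taken, and whether WAT and BAT of the same number came from 1 mouse, is not stated in the labels.

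Median intensities per array ran from 52.7 to 61.0 in WAT and from 46.3 to 50.6 in BAT, in linear PLIER units. Per2 itself, the targeted gene, had intensities of 99.5 to 122 in WAT of per2+/+, 108 to 172 in WAT of per2-/-, 158 to 174 in BAT of per2+/+ and 138 to 158 in BAT of per2-/-; where its probes lie relative to the deletion is not known here, and its level therefore does not check the genotype labels. Markers shared by white and brown adipocytes were high on every array, with the summed intensity of 5 such genes between 18991 and 32898. Summed over 7 brown adipocyte markers, Ucp1 among them, the intensity was 31328 to 34855 on the BAT arrays, and over 6 white adipocyte markers it was 6853 to 14743 on the WAT arrays. The brown markers summed to 231 to 275 in WAT of per2+/+ and to 5582 to 9733 in WAT of per2-/-. WAT per2-/- replicate 3 stood apart: its rank correlation with the other WAT arrays was 0.950 to 0.959, against 0.966 to 0.985 among the other 5, while its rank correlation with BAT arrays (0.899 to 0.913) was above that of the other 5 (0.853 to 0.878). The members' calls and median differences that use it are given with and without it.

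The promoters of 4 epididymal lipocalins that lie side by side on chromosome 2, and of the 2 members that lie outside their cluster, are shown first, because all 9 genes differed between the tissues in the same direction. Each is the RefSeq sequence of build GRCm38.p6 from 250 bases before the start of the gene to 50 after it, 5′ to 3′ on the gene's strand. Lcn8 (chr2:25652868-25653167), Lcn5 (chr2:25657702-25658001), Lcn6 (chr2:25676536-25676835) and Lcn10 (chr2:25682476-25682775) lie on the plus strand, and Lcn2 (chr2:32387690-32387989) and Apod (chr16:31314759-31315058) on the minus strand. Capitals mark matches to the motifs named below.
Lcn8: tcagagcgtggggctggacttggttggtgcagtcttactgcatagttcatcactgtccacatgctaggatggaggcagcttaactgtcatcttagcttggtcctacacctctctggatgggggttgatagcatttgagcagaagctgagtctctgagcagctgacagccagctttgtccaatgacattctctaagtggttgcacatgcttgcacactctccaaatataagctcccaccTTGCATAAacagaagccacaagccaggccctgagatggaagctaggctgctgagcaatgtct
Lcn5: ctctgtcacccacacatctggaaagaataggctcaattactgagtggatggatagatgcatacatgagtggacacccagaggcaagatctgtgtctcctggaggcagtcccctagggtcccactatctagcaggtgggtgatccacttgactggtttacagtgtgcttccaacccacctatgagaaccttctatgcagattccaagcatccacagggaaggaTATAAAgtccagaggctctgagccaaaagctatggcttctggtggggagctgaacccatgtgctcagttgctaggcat
Lcn6: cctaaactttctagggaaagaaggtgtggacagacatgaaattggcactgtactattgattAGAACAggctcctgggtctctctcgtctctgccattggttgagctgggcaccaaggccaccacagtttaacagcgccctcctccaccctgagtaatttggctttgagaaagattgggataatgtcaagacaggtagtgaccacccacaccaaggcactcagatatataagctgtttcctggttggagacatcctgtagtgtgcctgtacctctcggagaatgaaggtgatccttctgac
Lcn10: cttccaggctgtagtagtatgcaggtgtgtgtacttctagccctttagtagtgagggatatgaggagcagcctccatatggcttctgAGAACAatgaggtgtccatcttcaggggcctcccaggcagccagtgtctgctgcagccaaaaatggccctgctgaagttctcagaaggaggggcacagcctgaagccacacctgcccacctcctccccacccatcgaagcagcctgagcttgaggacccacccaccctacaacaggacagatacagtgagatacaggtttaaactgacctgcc
Lcn2: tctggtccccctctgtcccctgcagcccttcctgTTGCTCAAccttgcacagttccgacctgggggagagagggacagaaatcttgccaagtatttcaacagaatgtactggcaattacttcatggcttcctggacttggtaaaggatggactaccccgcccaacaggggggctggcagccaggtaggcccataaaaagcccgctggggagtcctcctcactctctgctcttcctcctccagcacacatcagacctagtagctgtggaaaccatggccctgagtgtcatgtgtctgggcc
Apod: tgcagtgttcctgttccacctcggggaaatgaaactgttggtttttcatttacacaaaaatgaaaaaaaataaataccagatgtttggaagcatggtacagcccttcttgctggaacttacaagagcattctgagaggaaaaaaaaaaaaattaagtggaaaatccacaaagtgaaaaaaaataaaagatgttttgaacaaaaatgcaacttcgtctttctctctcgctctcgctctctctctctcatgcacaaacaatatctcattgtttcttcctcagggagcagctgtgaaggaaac

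6 motifs were searched on both strands in all 9 members and in 32851 promoters of the same length. AGAACA, a half-site bound by the androgen and glucocorticoid receptors, was found in 4 of the 9 members, Lcn6 (first base at -189 from the start), Lcn10 (-163), Lcn12 (-203) and Lcn9 (-45), and in 19.0% of all promoters. TATAAA, a form of the TATA box, was found at -28 in Lcn5 alone and, at any position, in 13.6% of all promoters. Other forms of the TATA box were not searched, so their absence from the other members is not shown. TTGCNNAA, a form of the C/EBP site, was found in Lcn8 (-12) and Lcn2 (-216), and in 10.8% of all promoters. The kappaB motif was found in Ptgds (-22) and in 4.51% of promoters. The forkhead motif TGTTTAC (3.65% of promoters) and the clock's E-box CACGTG (7.15%) had no match in the 9 windows, and Apod had none of the 6 motifs. A match describes these letters only and does not show a binding site, and none of the motifs overlapped another in the printed windows.

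The comparison of BAT with WAT asked which genes differ between the brown and the white tissue. All 9 lipocalins were high in WAT and low in BAT in both genotypes. Lcn5, which encodes the epididymal retinoic acid-binding protein, had intensities of 7764, 8058 and 7382 in WAT of per2+/+ and 9381, 10108 and 3053 in WAT of per2-/-. In BAT it was at 9.48, 47.5 and 2.57 in per2+/+ and at 3.12, 4.55 and 2.07 in per2-/-. The tissues did not overlap, and the lowest WAT array, per2-/- replicate 3, was still far above the highest BAT array, per2+/+ replicate 2. On the scale of log2(intensity + 16), used for all tests, the difference BAT minus WAT was -7.96 in per2+/+ and -8.43 in per2-/- (SE 0.46 in both, limma adjusted p = 1.13e-07 and 2.05e-07). The addition of 16 makes such differences smaller than the ratio of the intensities. Each SE given for a member rests on a spread estimated over all 4 groups, WAT per2-/- replicate 3 included. Without that array the SEs of the per2+/+ differences ran from 0.09 (Lcn2) to 0.33 (Lcn9) over the 9 members.

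Lcn8, a close relative of Lcn5 secreted by the upstream part of the duct, had intensities of 9997, 10094 and 9698 in WAT of per2+/+ and 10469, 10812 and 3173 in WAT of per2-/-. In BAT these were 7.20, 23.8 and 3.96 in per2+/+ and 8.56, 4.84 and 3.62 in per2-/-. No BAT array came near a WAT array, and the difference was -8.56 in per2+/+ and -8.37 in per2-/- (SE 0.40, adjusted p = 2.92e-08 and 9e-08). Lcn9, likewise an epididymal secretory lipocalin, had 10322, 9937 and 8987 in WAT of per2+/+ and 10034, 9923 and 3131 in WAT of per2-/-. Its BAT intensities were 8.54, 43.4 and 0.913 in per2+/+ and 0.906, 4.62 and 4.47 in per2-/-. The groups again did not overlap, with differences of -8.39 in per2+/+ and -8.46 in per2-/- (SE 0.47).

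Lcn10, Lcn6 and Lcn12 were lower in BAT too. In BAT the 6 epididymal members lay near or below the arrays' median intensities, so the sizes of their differences depend on the added constant and give no order among the genes. Lcn6, a lipocalin found on the surface of sperm, had 2239, 2029 and 2125 in WAT of per2+/+ and 1674, 1803 and 310.4 in WAT of per2-/-. All 6 of its BAT arrays were between 0.0918 and 7.03, and the difference was -6.70 in per2+/+ and -5.70 in per2-/- (SE 0.49). Lcn10 had 2279, 2209.9 and 1980.5 in WAT of per2+/+ and 2298, 2468 and 414 in WAT of per2-/-, against 0.00362 to 8.03 on the 6 BAT arrays. Its difference was -6.64 in per2+/+ and -6.21 in per2-/- (SE 0.50). Lcn12, which binds retinoic acid in the mouse epididymis, had 1748, 1666 and 1455 in WAT of per2+/+ and 1192, 1397 and 222 in WAT of per2-/-, against 4.16 to 10.5 in BAT. Its difference was -6.03 in per2+/+ and -4.98 in per2-/- (SE 0.50). For these 3 genes the lowest WAT array was per2-/- replicate 3 and stood well above each BAT array.

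Of the other lipocalins, Lcn2 encodes lipocalin 2, which withholds iron from bacteria by binding their siderophores and is known both from neutrophil granules and as a protein secreted by adipocytes. Its intensities were 9635, 9811 and 9886 in WAT of per2+/+ and 7721, 8313 and 2129 in WAT of per2-/-. In BAT they were 17.9, 21.3 and 16.7 in per2+/+ and 16.9, 14.3 and 10.1 in per2-/-. The difference was -8.15 in per2+/+ and -7.45 in per2-/- (SE 0.39, limma adjusted p = 3.31e-08 and 1.57e-07), and the tissues did not overlap. In BAT Lcn2 too lay below the arrays' median intensities, so the size of its difference depends on the added constant.

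Ptgds encodes lipocalin-type prostaglandin D2 synthase, an enzyme that is also abundant in the male genital tract. It had 1643, 1415 and 1303 in WAT of per2+/+ and 1224, 1184 and 225 in WAT of per2-/-, and in BAT 48.7, 51.5 and 36.7 in per2+/+ and 39.4, 36.2 and 32.4 in per2-/-. The tissues did not overlap, with a difference of -4.58 in per2+/+ and -3.77 in per2-/- (SE 0.47). Apod, apolipoprotein D, is a carrier of arachidonic acid and steroids that travels with high-density lipoprotein. It had 478, 391 and 395 in WAT of per2+/+ and 701, 849 and 253 in WAT of per2-/-, and in BAT 44.1, 48.5 and 49.8 in per2+/+ and 90.5, 56.4 and 65.5 in per2-/-. Its difference was the smallest of the 9, at -2.78 in per2+/+ and -2.68 in per2-/- (SE 0.34, adjusted p = 2.85e-05 and 5.27e-05), and its lowest WAT array remained above its highest BAT array.

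**Figure D1:**
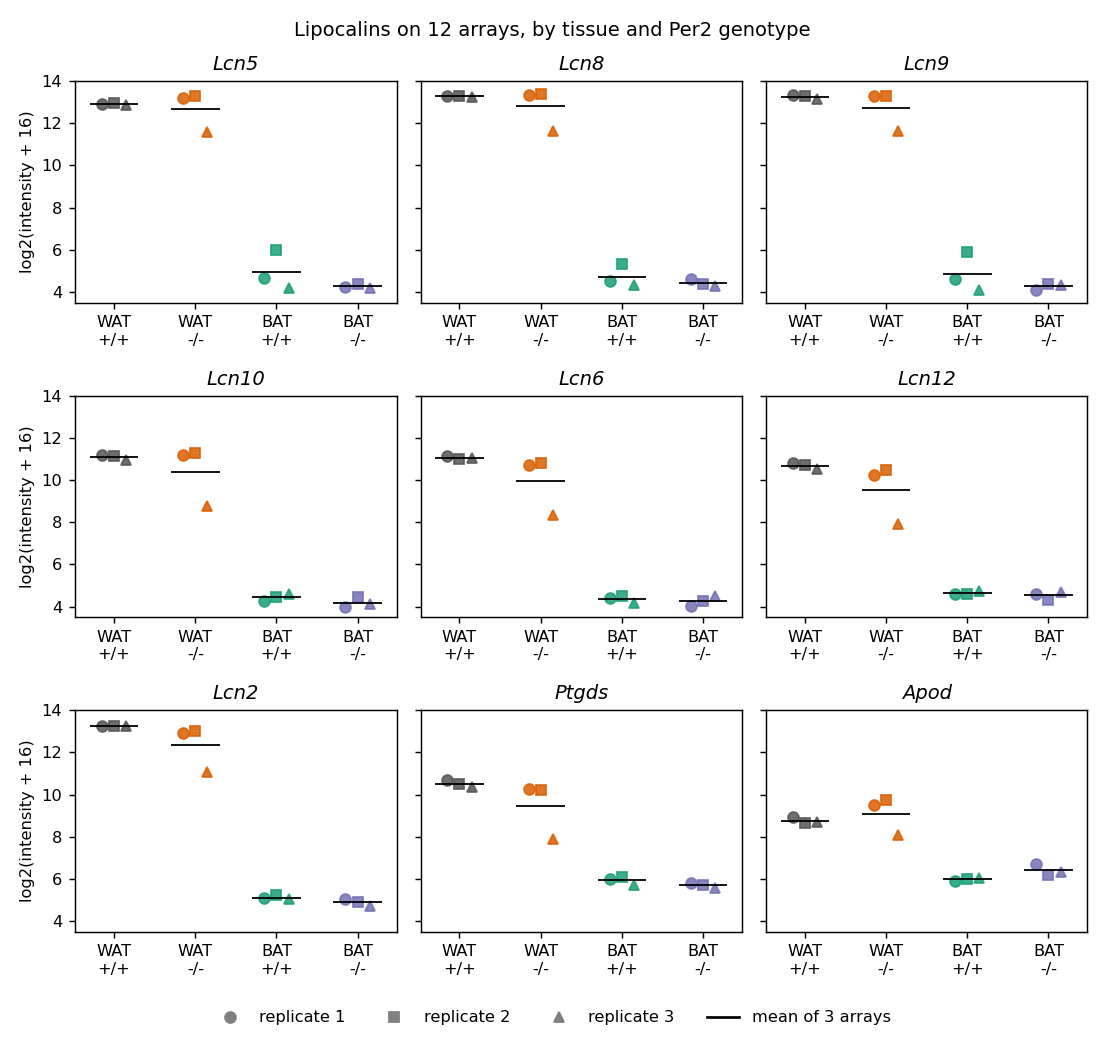
Intensity of each of the 9 lipocalins on the 12 arrays, as log2(intensity + 16) on the vertical axis, by tissue and Per2 genotype; symbols give the replicate and the horizontal line the mean of 3 arrays. In all 9 panels the WAT arrays are above the BAT arrays, and WAT per2-/- replicate 3 (triangle) is the lowest WAT array.

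With limma, 9 of 9 members were lower in BAT in per2+/+, where 30.3% of all genes were called lower and 20.3% higher, and 9 of 9 in per2-/-, where 26.8% were lower and 20.2% higher. In all 9 the arrays of the tissues did not overlap, which held in this direction for 34.9% of all genes in per2+/+ and for 30.0% in per2-/-. A gene was called at a Benjamini-Hochberg adjusted p under 0.05 over all genes. The median difference of the 6 epididymal members was -7.33 in per2+/+ and -7.29 in per2-/-, and that of the other 3 was -4.58 and -3.77, against -0.03 and 0.01 over all genes. The median of the other 3 was the value of Ptgds, while Lcn2, also among them, differed by -8.15 and -7.45. Without WAT per2-/- replicate 3 all 9 were again called lower in per2-/-, against 28.5% of all genes called lower and 21.2% higher, and the medians were -7.99 and -4.55. Another scaling of the arrays moved the median of all genes by up to 0.31, which is small beside the members' differences: over 22 alternatives the smallest was that of Apod, -2.12 in per2+/+ and -2.17 in per2-/-. In per2+/+, 40.1% of all calls were higher and 59.9% lower in BAT, but 71.1% were higher after median centring and 60.6% after quantile normalization; in per2-/- the share of higher calls was 42.9%, 73.3% and 61.6%.

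Markers of cell types that the samples could hold were read beside the lipocalins. Their counts stand beside 30.3% of all genes lower and 20.3% higher in BAT of per2+/+, and 26.8% and 20.2% in per2-/-. Of 24 measured markers of epididymal epithelium, 22 were lower in BAT of per2+/+ and 23 in BAT of per2-/-, with median differences of -6.34 and -5.86. The summed intensity of these markers was 113116 to 127417 in WAT of per2+/+, 29249 to 122032 in WAT of per2-/-, 201 to 487 in BAT of per2+/+ and 227 to 273 in BAT of per2-/-. Defb48, an epididymal beta-defensin, went from 47287 ± 4504 (mean ± SD, n = 3) in WAT to 15.3 ± 6.09 in BAT of per2+/+, and Adam7, a membrane protein that epididymal epithelium passes to sperm, from 8536 ± 233 to 12.1 ± 14.8. General epithelial markers were lower in BAT for 7 of 7 genes in both genotypes, and Cldn7, a claudin of epithelial junctions, differed by -8.60 in per2+/+. Markers of sperm and testis were lower for 7 of 9 genes in per2+/+ and 5 of 9 in per2-/-, with summed intensities of 855 to 1423 in WAT of per2+/+, 321 to 997 in WAT of per2-/- and 217 to 321 over all BAT arrays. Mesothelial markers, which share Krt19 with the general epithelial list, were lower for 7 of 7 in both genotypes. White adipocyte markers were lower for 5 of 6 in both. Schwann cell and nerve markers, included because Apod is known from glial cells, were higher for 3 of 5 and lower for 1 of 5 in both genotypes, with summed intensities of 558 to 1123 in WAT and 990.1 to 1229 in BAT. Skeletal muscle markers were higher in BAT for 7 of 7 in both genotypes, with sums of 111 to 1166 in WAT and 3397 to 24206 in BAT. The part that each of these cell types has in the lipocalin levels was not tested, and in bulk tissue fewer cells of a type and less RNA per cell cannot be told apart.

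Lcn2 can also come from neutrophils and macrophages. Of 9 neutrophil markers none was lower and 2 were higher in BAT of per2+/+, where 2 of 9 reached an unadjusted p under 0.05. In per2-/- 1 was lower and 2 were higher. Among all genes, 30.3% were lower and 20.3% higher in per2+/+, and 26.8% and 20.2% in per2-/-. The summed intensity of the neutrophil markers was 221 to 565 in WAT and 242 to 328 in BAT. Mpo, a granule enzyme, was between 10.4 and 22.7 on all arrays. Macrophage markers were lower in BAT for 6 of 7 genes in per2+/+ and 7 of 7 in per2-/- (6 of 7 without WAT per2-/- replicate 3), with a median of -1.44 in per2+/+.

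The genotypes were then compared within WAT. None of the 9 lipocalins was called, against 2.42% of all genes, and 4 of the 9 (Lcn2, Lcn6, Lcn12 and Ptgds) had an unadjusted p under 0.05. In these 4, every per2-/- array was below every per2+/+ array, which held for 10.7% of all genes. Their differences, per2-/- minus per2+/+, were -0.92 for Lcn2 (95% interval -1.77 to -0.08, adjusted p = 0.313), -1.10 for Lcn6 (-2.18 to -0.02, adjusted p = 0.353), -1.14 for Lcn12 (-2.23 to -0.06, adjusted p = 0.334) and -1.04 for Ptgds (-2.08 to -0.00495, adjusted p = 0.357). In the other 5 the genotypes overlapped, with differences of -0.22 for Lcn5, -0.48 for Lcn8, -0.52 for Lcn9, -0.68 for Lcn10 and 0.34 for Apod. The intervals of these 5 all included 0 and reached from -1.78 to 1.07. The authors' deposited tables give unadjusted p-values, from logs, of 0.00734 for Lcn2, 0.00995 for Lcn12, 0.0113 for Lcn6 and 0.0129 for Ptgds, and of at least 0.0901 for the other 5.

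The sizes of these differences rested largely on replicate 3 of per2-/-. Its intensity was 17.2% (Lcn12), 17.4% (Lcn10), 17.9% (Lcn6), 18.7% (Ptgds), 26.6% (Lcn2), 29.8% (Lcn8), 31.3% (Lcn5), 31.4% (Lcn9) and 32.6% (Apod) of the mean of the other 2 per2-/- arrays. Over 14283 genes with a mean of at least 32 in WAT the median was 98.2%, and 8.27% of them were below 50%. On the same array the 24 epididymal markers had a median of 19.5% (range 4.31 to 41.0%) and the 7 general epithelial markers 18.2%. The adipocyte markers were higher on this array, with a median of 212% for 6 white adipocyte markers and 211% for 5 markers of any adipocyte. The medians were 202% for mesothelial (range 37.4 to 270%) and 181% for macrophage markers. The lowest mesothelial value was that of Krt19, which is also 1 of the general epithelial markers. All 9 lipocalins, Lcn2 and Apod included, were low on the array on which epididymal and general epithelial markers were low and adipocyte markers were high. The part of tissue makeup in the genotype differences was not tested.

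**Figure D2:**
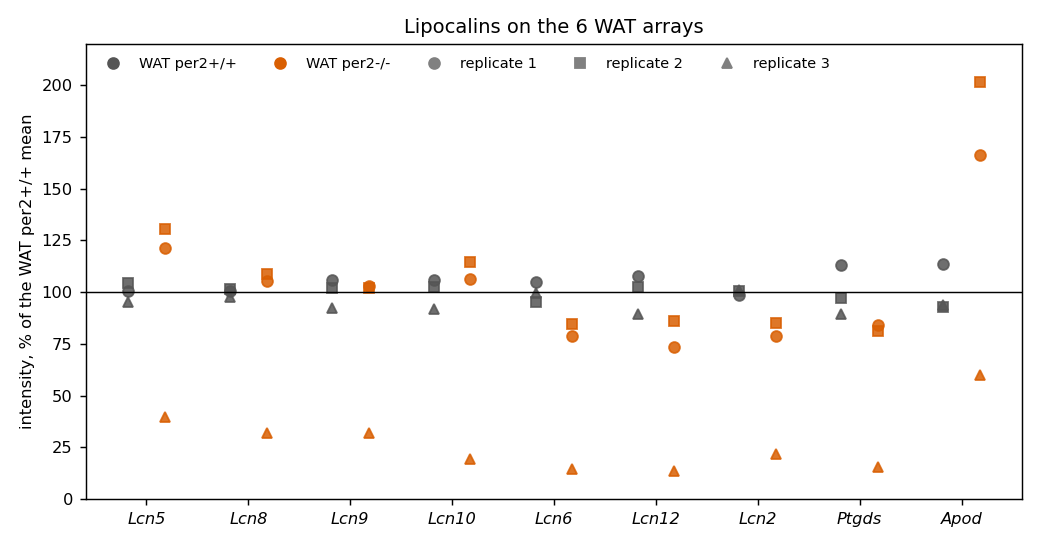
Intensity of each lipocalin on the 6 WAT arrays as a percentage of its mean over the 3 per2+/+ arrays (horizontal line at 100); grey points are per2+/+ and orange points per2-/-, with symbols for the replicates. Replicate 3 of per2-/- is lowest for all 9 genes, and the other 2 per2-/- arrays lie above every per2+/+ array for Apod, Lcn5, Lcn8 and Lcn10.

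Without that array the members lay on both sides of the per2+/+ level. The mean of per2-/- replicates 1 and 2 was 1.84 times the per2+/+ mean for Apod, 1.26 times for Lcn5, 1.11 times for Lcn10 and 1.07 times for Lcn8, with both arrays above every per2+/+ array, which held for 19.0% of all genes. It was 0.797 times for Lcn12, 0.816 times for Lcn6, 0.820 times for Lcn2 and 0.828 times for Ptgds, with both arrays below, which held for 18.1%. For Lcn9 it was 1.02 times and the genotypes overlapped. In the fit without replicate 3, Apod rose by 0.85 (SE 0.15, adjusted p = 0.00749), the only member of the 9 called, against 4.39% of all genes. Its adjusted p was 0.725 with all arrays and 0.00749 to 0.994 over the alternatives. The differences of Lcn5 (0.33), Lcn8 (0.10), Lcn9 (0.04) and Lcn10 (0.14) changed sign, and those of Lcn12 (-0.32), Lcn6 (-0.29), Lcn2 (-0.29) and Ptgds (-0.26) stayed below 0, none of them called (adjusted p from 0.195 to 0.986).

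Per array, the mean log2 level of the 6 epididymal lipocalins was 12.11, 12.07 and 11.96 in WAT of per2+/+ and 12.00, 12.09 and 9.97 in WAT of per2-/-. In BAT it was 4.51, 5.13 and 4.35 in per2+/+ and 4.26, 4.37 and 4.36 in per2-/-. The mean of Lcn2, Ptgds and Apod was 10.96, 10.80 and 10.77, then 10.89, 11.00 and 9.02, then 5.67, 5.77 and 5.60, and last 5.85, 5.60 and 5.55 over the same 4 groups. The means of both sets varied little over 5 WAT arrays and were lower on per2-/- replicate 3. Single members lay above or below the per2+/+ level on the other per2-/- arrays, as given above, which a mean over a set does not show. Brown adipocyte markers differed between the same WAT groups, with 6 of 7 called higher in per2-/- (1.27% of all genes were) and the summed intensities given above, and 1 of 7 skeletal muscle markers (Myh4, a fast myosin) rose, by 2.64 (limma adjusted p = 0.0223, not called with any 1 of the 3 per2+/+ arrays or per2-/- replicate 2 left out, with the WAT arrays alone or with an added constant of 64, adjusted p up to 0.225). Their part in the lipocalin values was not tested.

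**Figure D3:**
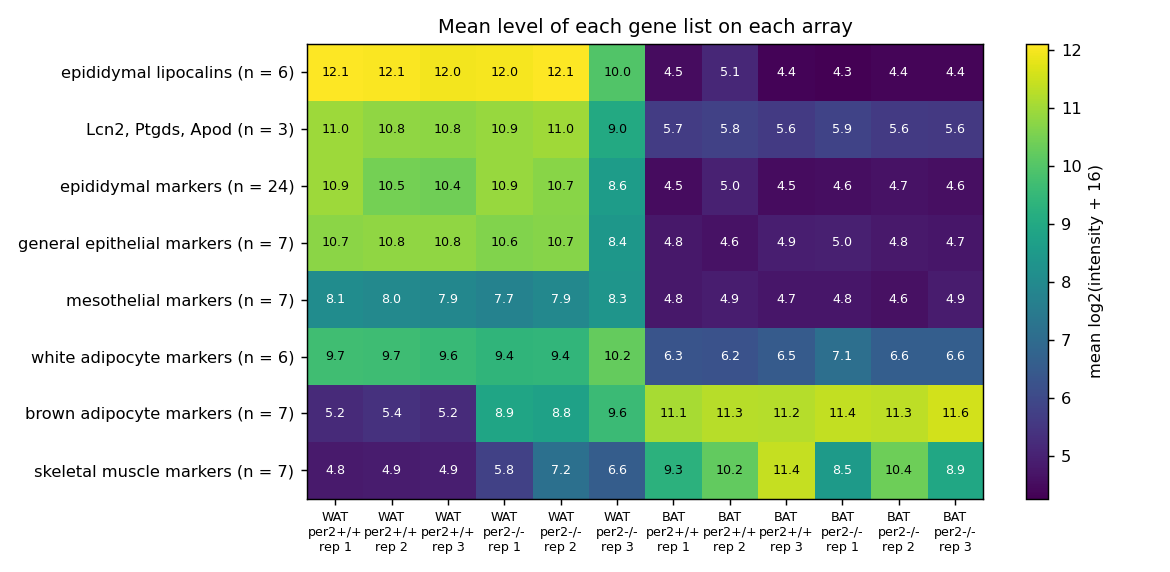
Mean log2(intensity + 16) of each gene list (rows, n genes) on each of the 12 arrays (columns), by colour and printed value. The epididymal lipocalins, the other 3 lipocalins and the epididymal and general epithelial markers are lowest among the WAT arrays on per2-/- replicate 3, where white adipocyte markers are highest.

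In BAT the comparison of genotypes called none of the 9 lipocalins, against 1.72% of all genes. Apod, at 44.1 to 49.8 in per2+/+ and 56.4 to 90.5 in per2-/-, was higher on every per2-/- array, which held for 14.2% of all genes. Its difference was 0.43 (95% interval -0.30 to 1.17, adjusted p = 0.669). The authors' deposited table gives it an unadjusted p of 0.00789 from logs, and in the fit without WAT per2-/- replicate 3, which enters the shared estimate of spread, its adjusted p was 0.105. The other 8 members overlapped between genotypes, with differences from -0.69 (Lcn5) to -0.09 (Lcn12). None of these 8 had an unadjusted p under 0.05 with all arrays, and without WAT per2-/- replicate 3 Lcn2 did (unadjusted p = 0.0371, limma adjusted p = 0.227). The authors' deposited table gives Lcn5 an unadjusted p of 0.042 from logs and 0.0218 from linear values, and Lcn9 0.175 and 0.0308. On all 6 arrays their intensities were at or below 51.5.

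One BAT array had higher values of 3 epididymal lipocalins than the rest. On per2+/+ replicate 2, Lcn5, Lcn9 and Lcn8 were at 47.5, 43.4 and 23.8, against at most 9.48, 8.54 and 8.56 on the other 5 BAT arrays. These values are near or below the median intensities of the BAT arrays (46.3 to 50.6), so no fold is given. Of the 24 epididymal markers, 13 were highest among the BAT arrays on this one and 0 to 4 on each of the others. The share of all genes that were highest on this array was not counted. Some of the markers, Pate4 and Spint3 among them, were so dim on every BAT array that the order of the arrays says little. Without this array the difference of Lcn8 in BAT went from -0.29 to 0.00405.

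The change with genotype was also compared between the tissues, as the BAT difference minus the WAT difference. None of the 9 members was called, against 0.592% of all genes, and none had an unadjusted p under 0.05. The values ran from -0.47 for Lcn5 (95% interval -1.90 to 0.96) to 1.05 for Lcn12 (-0.48 to 2.59), with 0.10 for Apod (-0.94 to 1.14). Without WAT per2-/- replicate 3 they ran from -1.03 (Lcn5) to 0.23 (Lcn12), again with none called, against 1.87% of all genes.

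**Figure D4:**
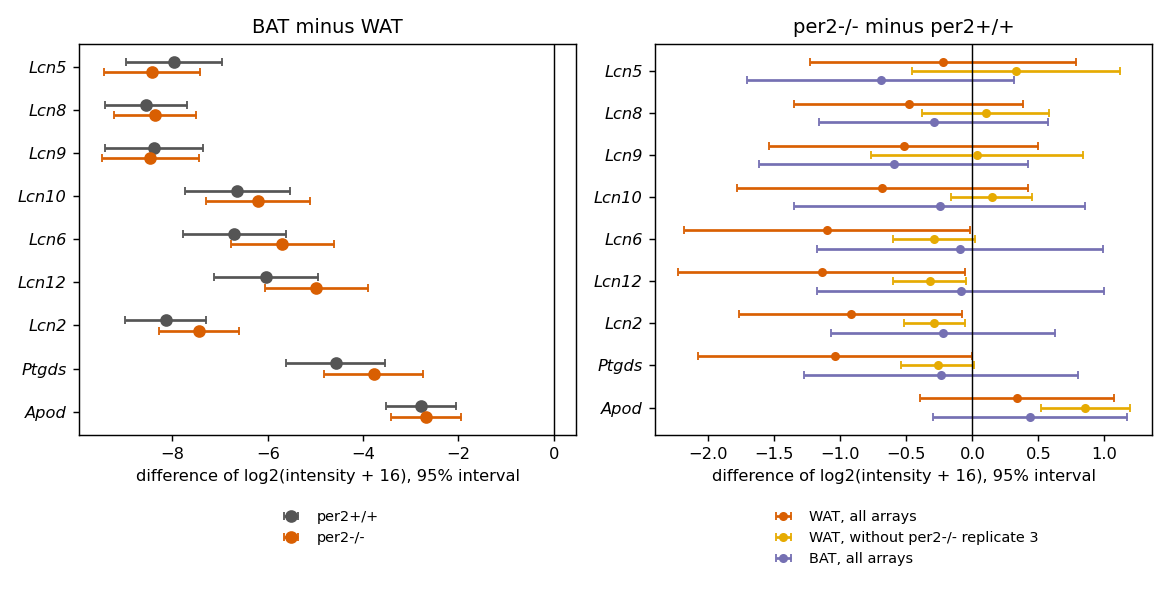
Difference of log2(intensity + 16) for each lipocalin, BAT minus WAT in both genotypes (left) and per2-/- minus per2+/+ in WAT, in WAT without per2-/- replicate 3 and in BAT (right); points are estimates and bars 95% intervals. All tissue differences lie below -2, while most genotype intervals reach across 0, and that of Apod in WAT without replicate 3 lies above it.

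The members' position on chromosome 2 was set beside their values. In RefSeq GRCm38.p6, 7 of the 9 lie in 1 stretch of 29 protein-coding genes, all measured: Ptgds next to Lcn12, then Lcn8, Lcn5, Lcn6 and Lcn10 in a row, and Lcn9 farther on. Lcn2 lies elsewhere on chromosome 2 and Apod on chromosome 16. Among the other 22 genes of the stretch, 6 were lower and 6 higher in BAT of per2+/+ (30.3% and 20.3% of all genes were) and 10 were not called, with a median difference of 0.05. Obp2a, an odorant-binding lipocalin gene next to Lcn10, fell by 3.63 (adjusted p = 3.56e-05), Bmyc, a Myc relative, by 3.37, and Clic3, a chloride channel family member next to Ptgds, by 2.63. Other family genes of the stretch were dim, with Lcn3 and Lcn11 at 7.71 to 19.9 on all arrays and differences of 0.10 and -0.15 in per2+/+. After median centring Lcn3 was called higher (0.40, adjusted p = 0.00384) and Lcn11 was at 0.15. Lcn15, beside Lcn8, had group means of 15.4 to 30.0 and was called higher in BAT of per2+/+ (0.44, adjusted p = 0.0328). That call did not hold without WAT per2+/+ replicate 1 or 3, without BAT per2+/+ replicate 1 or 3, with an added constant of 64 or with the replicate number as a block (adjusted p up to 0.137). In per2-/-, 5 of the 22 were lower, 4 higher and 13 not called, against 26.8% of all genes lower and 20.2% higher.

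**Figure D5:**
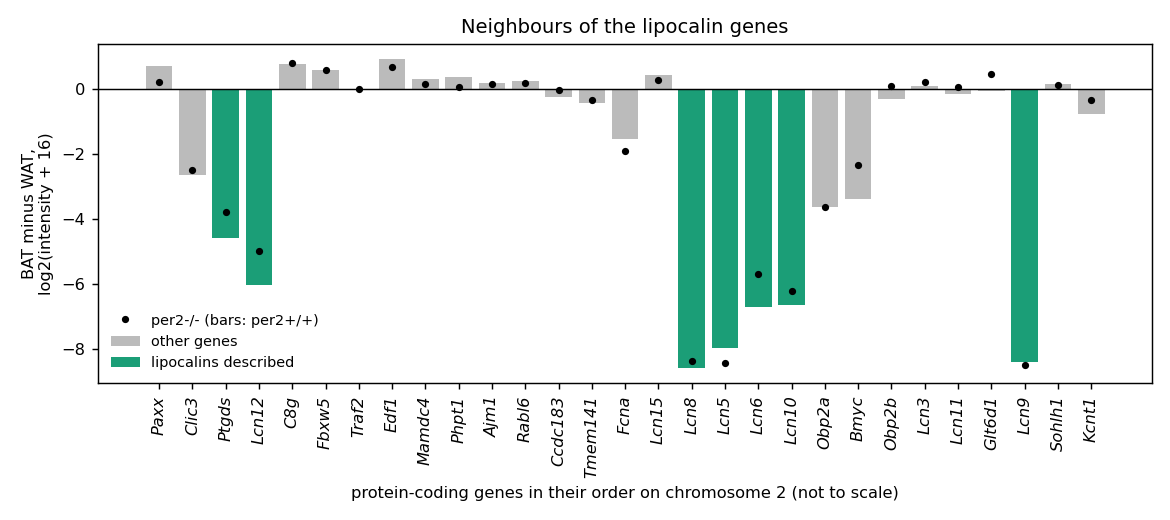
Difference BAT minus WAT of log2(intensity + 16) for the 29 protein-coding genes of the stretch, in their order on chromosome 2 (not to scale); bars are per2+/+ (green, the 7 lipocalins described; grey, other genes) and dots per2-/-. The green bars reach from -4.58 to -8.56, and of the grey bars Obp2a, Bmyc, Clic3 and Fcna are below -1.

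Genes whose pattern was most like each member were named by the highest Pearson r over the 12 arrays among 4036 genes that varied between arrays. For Lcn5 these were Epp13, Gpx5 and Adam7, for Lcn8 Cuzd1, Adam7 and Defb47, and for Lcn9 Adam7, Gpx5 and Cstdc2. For Lcn6 they were Cldn2, Prkcz and Rnase10, for Lcn10 Prrg3, Tmem150c and Teddm1a, and for Lcn12 Slc45a3, Ap1m2 and Defb39. For Lcn2 they were Slc38a5, Teddm2 and Wfdc10, and for Ptgds Rnf128, Gstm6 and Aqp9. Each of these 24 pairs had an r of 0.998 or more. Apod was less like its nearest genes, which were Tesk2 (r = 0.993), Dsc2 (0.991) and Arhgap8. The number of genes with an r above 0.99 was 3 for Apod and 57 to 398 for the other 8. The 12 arrays share tissue and genotype, so r mostly follows the distance between tissues. Among the members themselves r was 0.953 (Ptgds with Apod) to 0.999 (Lcn5 with Lcn9).

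A chosen list of other genes with the lipocalin fold, which did not hold Lcn15, had 16 measured genes. Of these, 1 was lower and 4 were higher in BAT of per2+/+, where 30.3% of all genes were lower and 20.3% higher. Their median difference was 0.08. Obp2a was the 1 that was lower, in both genotypes. Orm3, an orosomucoid, went from 47.4 ± 8.63 in WAT to 283 ± 107 in BAT of per2+/+ (difference 2.19, adjusted p = 3.26e-05), and C8g, a complement subunit, was higher by 0.77. In WAT, Orm3 was at 57.2, 41.2 and 43.6 in per2+/+ and at 127, 111 and 238 in per2-/- (difference 1.40, limma adjusted p = 0.0175). Brown adipocyte markers were also higher in WAT of per2-/-, most so on replicate 3, and their part in the Orm3 values was not tested. Orm3 was the 1 of 16 called, against 2.42% of all genes. Its call did not hold without WAT per2+/+ replicate 2 or 3 (adjusted p = 0.0828 and 0.0842), with the WAT arrays alone (0.108) or with an added constant of 64 (0.051). Without per2-/- replicate 3 the count was 2 of 16, against 4.39% of all genes. In BAT, Rbp4, the plasma carrier of retinol, was at 1025, 1862 and 1629 in per2+/+ and at 4747, 4805 and 4914 in per2-/- (difference 1.71, adjusted p = 0.0087). It was the 1 of 16 called there, against 1.72% of all genes. In WAT Rbp4 was higher by 1.02 in per2-/- and was not called (adjusted p = 0.0898).

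Genes that serve Lcn2 were next. Lrp2, the megalin receptor that takes up Lcn2, was at 1393, 2256 and 2801 in WAT of per2+/+ and at 36.9 to 45.4 in BAT of per2+/+, a difference of -5.21 (SE 0.31, limma adjusted p = 1.43e-07). In WAT of per2-/- Lrp2 was at 1951, 1777 and 781, lowest on replicate 3 as the lipocalins were. Slc22a17, another receptor described for Lcn2, differed by -1.27 (adjusted p = 3.24e-05). Of 14 genes listed as receptors, iron partners or inducers of Lcn2, 7 were lower and 1 higher in BAT of per2+/+, and 6 lower and 1 higher in per2-/- (6 and 2 without WAT per2-/- replicate 3). Of all genes, 30.3% were lower and 20.3% higher in per2+/+, and 26.8% and 20.2% in per2-/-. The 1 higher was Cebpb, a transcription factor that induces acute-phase genes, by 2.30. Serpina3n, an acute-phase protease inhibitor, was lower in BAT of per2+/+, with a difference of -4.20. In per2-/-, Cebpb was higher by 0.71 in WAT (limma adjusted p = 0.0196) and Serpina3n by 2.51 in BAT (from 43.3 ± 7.30 to 329 ± 98.0, limma adjusted p = 0.000565). Each was the 1 gene of 14 called, against 2.42% of all genes in WAT and 1.72% in BAT. In the other tissue each was higher but not called. Cebpb rose by 0.46 in BAT (adjusted p = 0.155) and Serpina3n by 0.70 in WAT (adjusted p = 0.257). Without WAT per2-/- replicate 3, 1 of 14 was higher and 1 lower in WAT, against 4.39% of all genes called. The call of Cebpb did not hold without WAT per2+/+ replicate 2 or 3 (adjusted p = 0.0926 and 0.0892) or with the WAT arrays alone (0.193). Brown adipocyte markers were also higher in WAT of per2-/-, and their part in the Cebpb values was not tested. The cytokines Il1b and Tnf stayed between 11.1 and 45.8 on all arrays.

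Around Ptgds, 7 of 11 genes of prostaglandin D2 synthesis, transport and breakdown were lower in BAT and 1 was higher, in both genotypes, against the same shares of all genes (30.3% and 20.3% in per2+/+, 26.8% and 20.2% in per2-/-). Ptges, a prostaglandin E synthase, differed by -2.75 in per2+/+ and -2.12 in per2-/-, Pla2g4a, which frees arachidonic acid, by -2.51 and -2.02, and Hpgds, the other prostaglandin D2 synthase, by -0.92 and -0.63 (the latter -0.35 and not called after median centring). Cbr1, a carbonyl reductase, was higher by 0.58 and 0.37, the latter not called by the authors' deposited p-values (adjusted p = 0.113). None of the 11 was called between genotypes in WAT, where 1 of 11 had an unadjusted p under 0.05, and 1 of 11 was lower without replicate 3, against 2.21% of all genes. In BAT of per2-/- Ptges rose by 0.65 (adjusted p = 0.025), from 24.4 ± 6.18 to 47.1 ± 7.88. That call did not hold without BAT per2+/+ replicate 1 or 2, without any 1 of the 3 per2-/- arrays (adjusted p up to 0.111) or with the BAT arrays alone (0.0582).

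Of 9 genes linked to Apod by receptor, sterol or lipoprotein transport, 6 were lower and 1 higher in BAT of per2+/+, where 30.3% of all genes were lower and 20.3% higher. Scarb1, the receptor of high-density lipoprotein, differed by -1.25 and the leptin receptor gene Lepr by -0.88, while the sterol sensor gene Nr1h3 was higher by 1.56. Lepr was dim, at 24.1 to 27.9 in WAT and 4.48 to 9.09 in BAT of per2+/+. Its difference ran from -1.90 to -0.35 over 21 alternatives, called lower in each. Apoe, which like Apod encodes a secreted apolipoprotein, was at 4804, 4291 and 4166 in BAT of per2+/+ and at 1858, 1504 and 1359.8 in BAT of per2-/-. It fell by 1.49 (adjusted p = 0.000395), and its difference differed between the tissues by -1.29 (adjusted p = 0.0188). The latter was not called in 8 of 20 alternatives (adjusted p up to 0.0648), 6 of them with 1 array left out and the others quantile normalization and the replicate number as a block. In WAT none of the 9 was called, against 2.42% of all genes. Without per2-/- replicate 3, 1 of 9 was lower in WAT, against 2.21% of all genes.

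Retinoids are ligands of Lcn5 and Lcn12. Aldh1a1, which makes retinoic acid, was at 5342, 5604 and 5261 in WAT of per2+/+ and at 143 to 227 in BAT of per2+/+, a difference of -4.74 (adjusted p = 4.45e-08), and on WAT per2-/- replicate 3 it was at 2513, against 4763 and 4916 on the other 2 arrays. Aldh1a2, a second enzyme of this step, differed by -2.84. Of 14 genes of retinoid handling, 7 were lower and 1 (Rarb, a retinoic acid receptor, by 1.80) higher in BAT of per2+/+, against 30.3% and 20.3% of all genes. In per2-/-, Rbp7, a cellular retinol-binding protein, was higher by 2.62 in WAT (limma adjusted p = 0.00111) and by 2.64 in BAT (limma adjusted p = 0.00181). It was the 1 gene of 14 called in each tissue, against 2.42% of all genes in WAT and 1.72% in BAT. Its intensities were 56.5, 32.2 and 51.9 in WAT of per2+/+ and 276, 256 and 677 in WAT of per2-/-, with no overlap. Without WAT per2-/- replicate 3, 2 of 14 were higher and 1 lower in WAT, against 4.39% of all genes called.

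Of 5 measured transcription factors known from the male tract, 2 were lower in BAT, and 2 were higher in per2+/+ and 1 in per2-/-. The shares of all genes were 30.3% lower and 20.3% higher in per2+/+, and 26.8% and 20.2% in per2-/-. Pax8 was at 617, 685 and 736 in WAT of per2+/+, at 840, 717 and 136 in WAT of per2-/- and at 8.36 to 13.6 on the 6 BAT arrays, with differences of -4.69 and -4.10. Pax2 differed by -3.54 and -3.49. Both were lowest among the WAT arrays on per2-/- replicate 3, as the lipocalins were. Foxa2 was higher in BAT by 0.51 and 0.56, and the call in per2+/+ did not hold without WAT per2+/+ replicate 1 or BAT per2+/+ replicate 3. None of the 5 was called between genotypes in either tissue, with no unadjusted p under 0.05.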

How the data were processed

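The value table holds linear array intensities for 35557 transcripts, which the authors made with PLIER, per the submitters' processing notes. Comparison tables deposited by the authors give a signed fold change (a score with no values between -1 and 1) and unadjusted p-values on linear and natural log values, made with Cyber-T 8.01 and hdarray 3.71 under R 2.2.1, per the file headers. Of the transcripts, 21789 name 1 gene, and the row of highest mean was kept for each of 19938 genes. Here limma 3.58.1 in R 4.3.3 was fitted to log2(intensity + 16) over all 12 arrays as 4 group means, with Benjamini-Hochberg adjustment over all genes in each comparison. The 3 arrays per group limit the precision: the median standard error of a WAT genotype difference was 0.127 (log2). The fit was tested on simulated data with independent normal noise. These held no outlying array, so that test does not cover an array such as WAT per2-/- replicate 3. The labels call the arrays of a group biological replicates and give no batch. Replicate numbers were not shown to pair arrays, and no block was used in the main fit. Deviations of same-numbered arrays from their group means correlated at -0.119 to 0.0919, against -0.126 to 0.172 for other pairs. With 3 arrays per group these values cannot exclude a pairing. Named besides the members were up to 3 genes most like each member, from genes with a standard deviation of at least 0.5, and up to 4 called genes per list and comparison. A few genes outside that rule, the markers Defb48, Adam7, Cldn7, Mpo, Il1b, Tnf and the chromosome 2 neighbours among them, were picked after their values were seen. Members and lists were chosen with earlier results of these data known. Alternatives covered the added constant, scaling, arrays fitted, variance model, replicate block, rows, a filter on dim genes, the authors' p-values and each array left out.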

Additional observations from a re-analysis of the deposited data

How the results depend on the processing

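The BAT minus WAT result held throughout: 9 of 9 lipocalins were lower in BAT under all 22 alternatives in both genotypes. Of 972 single-member values under alternatives, 950 kept their direction and their side of the threshold, 21 changed sign and 1 became called. Of the sign changes, 7 were in the genotype comparisons, 14 in the difference between tissues, and 0 in BAT minus WAT. With single arrays left out, the number of lipocalins called between genotypes in WAT was 0 to 1 (Apod, without per2-/- replicate 3). Over the same fits the WAT difference ran from -0.53 to 0.33 for Lcn5, -0.78 to 0.10 for Lcn8, -0.80 to 0.036 for Lcn9 and -1.12 to 0.14 for Lcn10, each highest without per2-/- replicate 3. In BAT it ran from -0.22 to 0.037 for Lcn6, -0.49 to 0.00405 for Lcn8 and -0.16 to 0.020 for Lcn12. The difference between tissues ran from -1.03 to 0.045 for Lcn5, -0.39 to 0.49 for Lcn8, -0.63 to 0.44 for Lcn9, -0.39 to 0.87 for Lcn10 and -0.42 to 0.42 for Apod. It also changed sign with an added constant of 1 for Lcn8 (-0.17) and Lcn10 (-0.67), and with 64 for Lcn9 (0.27) and Apod (-0.055). After median centring the dim genes Lcn11 and Lcn3 differed between tissues by 0.15 and 0.40 in per2+/+, and Lcn3 became called (adjusted p = 0.00384). For all genes, 482 were called between genotypes in WAT, 127 with the WAT arrays alone, where fewer arrays estimate the spread, and 226 (without per2+/+ replicate 3) to 876 (without per2-/- replicate 3) with single arrays left out. In BAT 343 were called, 1072 by the authors' p-values, and 165 (without BAT per2-/- replicate 3) to 1033 (without WAT per2-/- replicate 3) with single arrays left out. For the difference between tissues 118 were called, and 59 to 372 with single arrays left out, the highest again without WAT per2-/- replicate 3. Among the other gene lists, 11 genes were called in WAT, 6 with the WAT arrays alone, 22 by the authors' p-values and 7 to 21 with single arrays left out. In BAT 5 were called, 15 by the authors' p-values and 4 to 12 with single arrays left out. The causes of these shifts were not tested. Of 1006 values of other named genes under alternatives, 967 kept direction and call, 37 lost the call, 1 (Lcn3) gained it and 1 (Lcn11) changed sign.

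With the replicate number as a block the counts of all genes called were 399 in WAT, 251 in BAT and 76 for the difference between tissues, and the lipocalin counts were 0, 0 and 0. The block also left 9 of 9 lipocalins lower in BAT in both genotypes. The numbers were not shown to pair the arrays. No lipocalin had a second transcript, so another row per gene could not be tried. Dim signal limits the genotype comparison in BAT, where the 6 epididymal lipocalins were at or below 47.5 on every array.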

Other observations

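Some epididymal genes varied between WAT replicates in ways the lipocalins did not, and were chosen after their values were seen. Defb22, a beta-defensin, had intensities of 594, 18.8 and 39.0 in WAT of per2+/+ and 846, 241 and 41.7 in WAT of per2-/-. Spint3, a protease inhibitor gene, had 191, 23.1 and 27.4 in per2+/+ and 163, 56.8 and 15.8 in per2-/-. Bsph2, which encodes a sperm-binding protein, had 247, 11.5 and 14.4 in per2+/+ and 155, 13.1 and 5.56 in per2-/-. Defb37 had 1032, 494 and 521 in per2+/+ and 426, 274 and 19.1 in per2-/-. These 4 were highest on replicate 1 of each genotype. Rnase9, a secreted protein of the duct, was more even, with 3597, 3928 and 3468 in per2+/+ and 5124, 5319 and 1176 in per2-/-, lowest on the array on which the lipocalins were lowest. Pax2, a transcription factor of the urogenital tract, had 1304, 1612 and 1717 in per2+/+ and 2312, 2369 and 475 in per2-/-.

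Among the immune and acute-phase genes read beside Lcn2, Ngp and Saa3 stood out on single arrays. Ngp, a neutrophil granule gene, was at 295 on WAT per2+/+ replicate 2. Saa3, an acute-phase gene, was at 458 on WAT per2+/+ replicate 1. Hp, the haptoglobin gene, was at 4625, 4044 and 3232 in WAT of per2+/+ and at 1368, 1212 and 3349 in WAT of per2-/-, where replicate 3, the lowest array for Lcn2, was the highest for Hp.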
